A study of Mus musculus with 36 samples.

Results

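Choroid plexus genes (Ttr, Kl, Folr1 and Clic6) and hormone genes of the anterior and intermediate pituitary (Prl, Gh, Pomc and Cga) were followed on Illumina mouse bead arrays in liver, kidney, skeletal muscle and brain of XO and XX females. They are 8 of 13588 genes with a named probe. All probes annotated to them were taken, 10 of the 28885 probes of the normalised table. These are 1 probe each for Ttr, Kl, Clic6, Prl, Gh and Cga and 2 each for Folr1 and Pomc. The mice were 12-week-old females of the random-bred MF1 stock, and every X chromosome traced back to 1 progenitor. XmO mice, whose single X is maternal, came from a cross of 40,XX females with 40,XPafY* males. XpO mice, whose single X is paternal, and XX mice came from a cross of In(X)1H/XPaf, a stock with an inverted X, with XY, so a comparison of XmO with XpO is also one of crosses. Each genotype gave 3 pools in each tissue, with RNA of 3 mice in pools 1 and 2 and of 2 mice in pool 3. The design counts 8 XmO, 8 XpO and 7 XX mice, while the XX pools add up to 8. The labels name the tissue only as brain. They do not say whether the whole brain was taken for every pool or whether the pituitary was left attached.

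The choroid plexus is the secretory epithelium that lines parts of the brain ventricles and makes cerebrospinal fluid. Its cells load that fluid with carrier proteins and vitamins, and they share several transport genes with kidney tubules and secreted proteins with liver. The pituitary hangs below the hypothalamus, and each of its hormone cell types makes large amounts of the messenger RNA of its own hormone. In RNA from a mixed tissue, a larger number of cells of a type and more RNA per cell cannot be told apart.

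Levels below are bead intensities before normalisation, in the scanner's arbitrary units. Differences are on the log2 scale after quantile normalisation over 35 arrays. XO is the XmO and XpO pools joined (6 in brain, kidney and liver, 5 in muscle) against 3 XX pools, tested with limma over all probes valued in a tissue with Benjamini-Hochberg adjustment at 0.05. A probe is called valued where the authors' normalised table gives it a value in that tissue and leaves no blank. Median intensities per array were 55.6 to 70.4, and muscle has 8 pools because the deposited intensities of XpO pool 3 there had a rank correlation of -0.0374 with that array's normalised values and were left out. The labelled tissues carried their defining genes, with intensities of 25875 to 39078 for the neuronal Snap25 (probe ILMN_2434336) in brain, 13399 to 19174 for Umod in kidney, 23293 to 33636 for Apoa1 in liver and 26096 to 27670 for Ckm in muscle. Brain valued 9 of the 10 member probes, kidney 6, muscle 6 and liver 3. The 17747 probes valued in no tissue give a floor for what a dim value can mean, with a 95th percentile of their mean levels at 59.3 intensity units in brain and 62.8 in kidney.

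Ttr encodes transthyretin, the carrier of thyroid hormone and retinol-binding protein that choroid plexus secretes into cerebrospinal fluid and liver into blood. In brain its intensity was 11329, 5703 and 8747 in XmO pools 1 to 3, 504, 5455 and 5418 in XpO pools 1 to 3, and 3005, 163 and 16934 in XX pools 1 to 3. The XX pools held both the highest and the lowest value. All XmO pools lay above all XpO pools, by a narrow margin (5703 against 5455). The share of brain probes that separate XmO from XpO pools was not counted. The standard deviation of Ttr over the 9 pools was 2.5 on the log2 scale and ranked 2 from the largest. The median over all 24863 probes valued in brain was 0.14. The XO minus XX difference was 1.41 (SE 1.54, adjusted p = 1.0 by limma), smaller than the spread within a genotype. XmO minus XpO was 2.17 (SE 1.74, adjusted p = 0.62 by limma).

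Kl encodes klotho, a co-receptor for FGF23 that is made in the distal kidney tubule and the choroid plexus. Its brain intensities were 175.7, 92.8 and 148.7 in XmO pools, 73.7, 127.8 and 95.9 in XpO pools, and 92.5, 68.9 and 183.5 in XX pools. Folr1 encodes the folate receptor alpha, which carries folate into cerebrospinal fluid and recovers it from the urine. Its brighter probe, ILMN_2707541, had 97.6, 74.8 and 85.2 in XmO brains, 60.2, 72 and 69.6 in XpO brains, and 69.4, 74.4 and 144.8 in XX brains. Both genes were thus dim in brain, within a few fold of the floor, and XX pool 3 was the highest pool for each. The second Folr1 probe, ILMN_1249359, was not valued in brain and stayed between 44 and 57.5.

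Clic6 belongs to the family of chloride intracellular channel proteins and is strongly transcribed in choroid plexus epithelium. In brain it measured 280.3, 200.4 and 318.3 in XmO pools, 207.3, 519 and 155.5 in XpO pools, and 138.6, 110.1 and 550.3 in XX pools. The groups overlapped, with XX pool 3 highest and XX pool 2 lowest, as for Ttr. Its spread over brain pools (SD 0.88 on the log2 scale) ranked 115 of 24863.

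**Figure D1:**
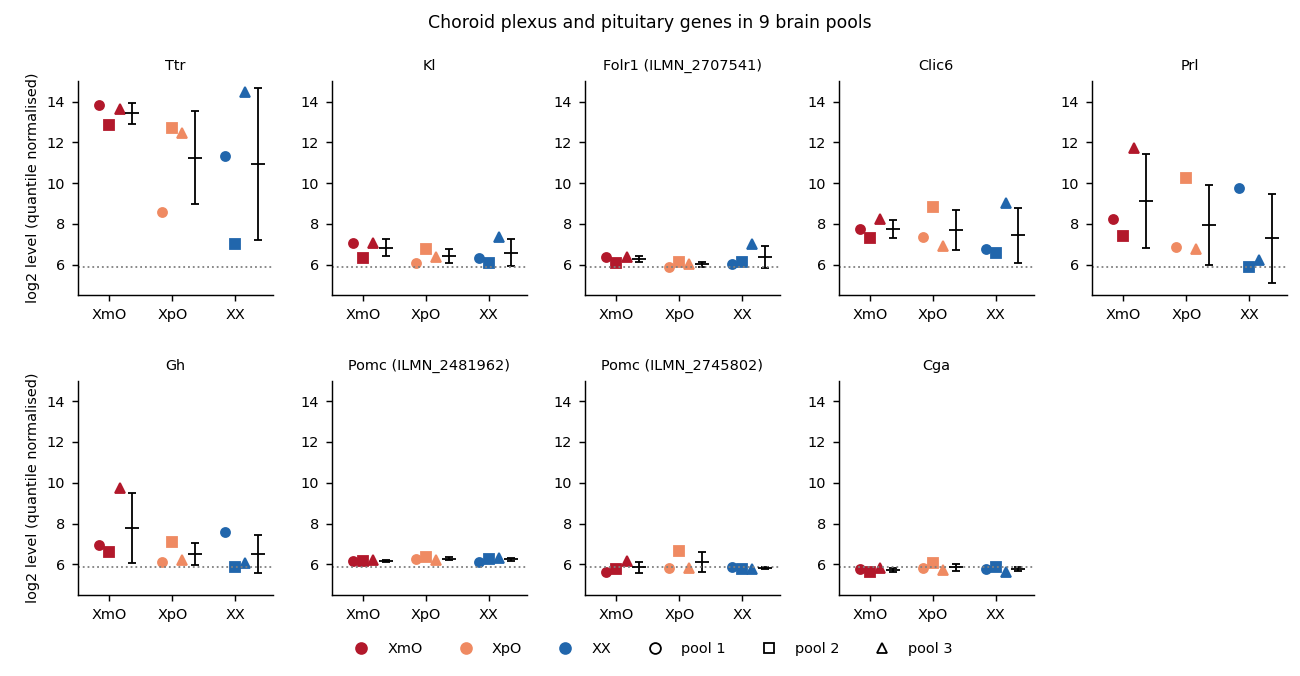
Log2 level after quantile normalisation (vertical axis) of the 9 member probes valued in brain, in 3 pools each of XmO, XpO and XX mice. Symbols give the pool number, bars the mean and standard deviation of the 3 pools, and the dotted line the 95th percentile of probes valued in no tissue. Ttr ran from 7.03 to 14.46 and Prl from 5.88 to 11.74 and the XO and XX pools overlap in every panel.

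The hormone genes varied among brains in other pools. Prl encodes prolactin, the hormone of lactotrophs. Its intensities were 392.6, 211.2 and 2842 in XmO brains, 142.3, 1278 and 136.9 in XpO brains, and 1154, 57.9 and 75.4 in XX brains. A single pool of each genotype was high, XmO pool 3, XpO pool 2 and XX pool 1, and XX pool 2 was at the floor. The standard deviation of 2.03 on the log2 scale ranked 9 of 24863. Gh encodes growth hormone, made by somatotrophs, and had 159.2, 119.8 and 847.4 in XmO brains, 75.5, 164.5 and 82.1 in XpO brains, and 264.6, 58.6 and 66.2 in XX brains. The 3 pools with the highest Prl were also the 3 with the highest Gh.

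Prl is shown with the stretch before its start site as background, since Prl and Gh are both classical targets of the pituitary factor Pit-1 (Pou1f1). Whether Pit-1 had a part in the shared variation of Prl and Gh over the pools was not tested. Of the 8 genes, 4 had a promoter in the RefSeq-derived table used here (Cga, Kl, Pomc and Prl). The 250 bases before the Prl start, at chr13:27057320-27057569 on the plus strand of GRCm38.p6, read 5′ to 3′ as follows, with matches to the Pit-1 core ATGNATA on either strand in capitals.
Prl: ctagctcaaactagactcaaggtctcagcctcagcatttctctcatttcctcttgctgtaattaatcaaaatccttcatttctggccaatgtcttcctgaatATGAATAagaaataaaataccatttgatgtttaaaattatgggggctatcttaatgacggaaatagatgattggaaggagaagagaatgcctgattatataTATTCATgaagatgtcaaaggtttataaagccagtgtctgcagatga
The plus-strand match covers bases 148 to 142 before the start and the minus-strand match bases 47 to 41. No match lay in the same window of Cga, Kl or Pomc. Of all 32851 promoters of the table, 7.92% hold this motif in that window. A match of letters is a description of the reference sequence and not a measured site.

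Pomc encodes the precursor of ACTH, melanocyte-stimulating hormone and beta-endorphin, and is transcribed in pituitary corticotrophs and melanotrophs and in neurons of the arcuate nucleus. Probe ILMN_2745802, annotated to the RefSeq transcript, had 52.1, 57 and 73.4 in XmO brains, 56, 115.1 and 55.3 in XpO brains, and 58.8, 53.9 and 52.2 in XX brains. On the intensity scale XpO pool 2 and XmO pool 3 were above the floor and the other pools were below it. The second probe, ILMN_2481962, annotated to a cDNA clone, was between 75.9 and 88.6 in every brain pool and between 66.9 and 95.9 in the other tissues, so the pair of Pomc probes did not follow each other. Cga encodes the alpha subunit shared by thyroid-stimulating hormone and the gonadotropins. It measured 57.4, 50.5 and 55.5 in XmO brains, 56, 68 and 50.2 in XpO brains, and 55.1, 58.2 and 46.9 in XX brains, and on the intensity scale only XpO pool 2 was above the floor. Lhb, the beta subunit of luteinising hormone, was not valued in brain, with 45.1 to 56.1 over the 9 pools.

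None of the 9 member probes valued in brain passed the test for XO against XX, where 0.00402% of all 24863 probes did, and none had an unadjusted p under 0.05. No member passed for XmO minus XpO, XpO minus XX or XmO minus XX in brain either, where 0.0161%, 0.00804% and 0.0282% of probes passed. The XO minus XX differences ran from -0.25 (SE 0.20) for Folr1 to 1.41 for Ttr, with 1.25 (SE 1.24) for Prl, 0.61 (SE 0.74) for Gh, 0.28 (SE 0.56) for Clic6 and 0.04 (SE 0.30) for Kl, each with an adjusted p of 1.0 by limma. Without XX pool 2, the Ttr difference was -0.55, and without XX pool 1 or 2 that of Clic6 was down to -0.16. With 1 pool left out, the difference ran from 0.55 (XX pool 2) to 2.5 (XX pool 1) for Prl and from 0.084 (XmO pool 3) to 1.15 (XX pool 1) for Gh. Standard errors of this size leave room for differences of several fold in either direction for Ttr and Prl.

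Which members moved together was read from the correlation of each of the 28 gene pairs over the 9 brain pools (the brightest valued probe of each gene, exact two-sided permutation over pairings, Benjamini-Hochberg over the 28 pairs). For Pomc this was ILMN_2481962, which was nearly level at 75.9 to 88.6. It was not ILMN_2745802, the probe highest in XpO pool 2 and XmO pool 3. Prl and Gh had a Pearson r of 0.92 (exact p = 4.96e-05, adjusted p = 0.0014) and a Spearman rho of 0.97 (exact p = 0.00017, adjusted p = 0.0046). The r was 0.99 without the 2 pools with the most extreme Prl, and 0.93 on deviations from the genotype means. Among the choroid plexus genes, r was 0.84 for Kl with Folr1 (exact p = 0.00078, adjusted p = 0.011), 0.84 for Ttr with Kl (exact p = 0.0027, adjusted p = 0.026) and 0.83 for Kl with Clic6 (exact p = 0.0068, adjusted p = 0.048). Their Spearman rho was 0.68 (exact p = 0.050, adjusted p = 0.23), 0.88 (exact p = 0.0031, adjusted p = 0.043) and 0.80 (exact p = 0.014, adjusted p = 0.13). Without the 2 pools farthest from the median of the first gene, r was 0.76, 0.88 and 0.69, and within genotypes 0.91, 0.84 and 0.89. Ttr with Clic6 gave 0.66 (exact p = 0.050, adjusted p = 0.23). In total 4 of 28 pairs passed by Pearson's r and 2 by Spearman's rho. No pair of a choroid plexus gene with Prl or Gh passed, with r between -0.11 and 0.39 in the 8 such pairs. Without the 2 pools farthest from the median of the first gene, r of these pairs spread from -0.25 for Ttr with Prl to 0.75 for Folr1 with Gh and 0.71 for Clic6 with Gh, over 7 pools. Without XX pool 3 or without XX pool 3 and XmO pool 2, the Prl and Gh pair passed and the choroid plexus pairs did not, with 8 or 7 pools left. Ttr with Kl also lost its call without XmO pool 1, XmO pool 3 or XpO pool 2, and Kl with Clic6 without any pool but XpO pool 2, with r of 0.82 to 0.84 and 0.75 to 0.88 for these pairs. Kl with Clic6 did not pass on the authors' values either (r = 0.83, adjusted p = 0.051) or under median scaling (r = 0.82, adjusted p = 0.062, both by exact permutation).

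**Figure D2:**
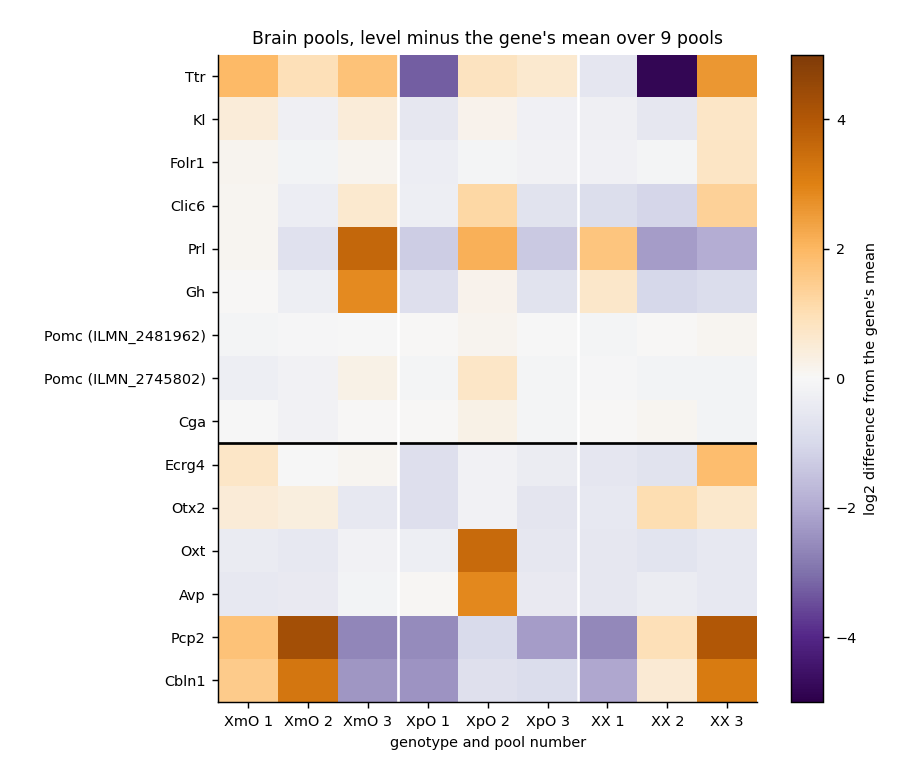
Log2 level of each probe in each brain pool minus that probe's mean over the 9 pools (colour scale), with members above the line and marker genes of choroid plexus (Ecrg4, Otx2), hypothalamus (Oxt, Avp) and cerebellum (Pcp2, Cbln1) below it. Ttr, Kl, Folr1, Clic6 and Ecrg4 peak in XX pool 3, Prl and Gh in XmO pool 3, Oxt and Avp in XpO pool 2 and the cerebellar genes in XmO pool 2.

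Other genes known from choroid plexus were read from a list of 32, of which 24 had valued probes in brain (32 probes). None passed for XO against XX in brain (median difference -0.07, against 0.00 over all probes). Like all 4 choroid plexus members, 19 of these 32 probes were highest in XX pool 3. The rest peaked in XmO pool 2 (4 probes), XmO pool 1 (3), XpO pool 2 (3), XX pool 2 (2) and XpO pool 1 (1). The share of all brain probes that were highest in XX pool 3 was not counted. The summed intensity of the list was 7561 to 10118 in XO and 8494 to 11768 in XX brains, highest in XX pool 3. It did not follow Ttr and Clic6 throughout, with 10371 in XX pool 2, where both were lowest, and 7674 in XmO pool 3. Ecrg4, which encodes the secreted augurin precursor, was 789.1 in XX pool 3 and 146.3 to 440.7 in the other 8. A probe of the water channel Aqp1 (ILMN_2756486) was 180 in XX pool 3 against 71.1 to 133 elsewhere. Sostdc1, a secreted BMP antagonist, had 199.7 in XX pool 3 and 84.9 to 166.1 in the others. Otx2, the transcription factor of choroid plexus and also of cerebellar granule cell precursors, departed from this order. It was 139.5, 122.9 and 55.3 in XmO brains, 42.8, 70.8 and 48.9 in XpO brains, and 54, 203.2 and 133.7 in XX brains, and was thus highest in XX pool 2, where Ttr and Clic6 were lowest. Of 24 other pituitary genes 10 had valued probes in brain (14 probes), and none passed. Of these 14 probes 5 were highest in XmO pool 2 and 5 in XpO pool 2. Only 1 was highest in XmO pool 3, where Prl and Gh were highest. Their summed intensity was 5519 to 8259 in XO and 5852 to 7659 in XX brains, lowest in XmO pool 3.

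The brain pools also differed in genes of brain regions. The 8 valued of 10 cerebellar genes summed to 5664 to 58600 intensity units in XO brains and 8339 to 48617 in XX brains, with all 9 probes highest in XmO pool 2. The Purkinje cell gene Pcp2 was 5007 there, 4342 in XX pool 3, 1265 in XmO pool 1 and 51.2 to 781.1 in the other 6. The 11 valued of 15 hypothalamic neuropeptide genes summed to 3410 to 11098 in XO brains and 4487 to 7936 in XX brains, and 10 of 11 probes were highest in XpO pool 2. In that pool oxytocin (Oxt) was 1076 and vasopressin (Avp) 662, against 52.5 to 75.9 and 55 to 97.5 in the other 8. The 7 valued of 9 striatal genes were highest in XpO pool 2 at all 10 probes, with sums of 1499 to 11866 in XO brains and 1489 to 3688 in XX brains. XpO pool 2 was the pool with the highest Pomc and Cga, and XX pool 3, the highest in Ttr, Kl, Folr1 and Clic6, was second in Pcp2, but Ttr was also 8747 in XmO pool 3, where Pcp2 was 51.2. The part of these regional differences in the members' values was not tested.

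Across all 24863 valued probes, the named genes other than the members that followed Ttr most closely over the 9 brain pools were Tsc2 (r = 0.89), Supt20 (0.87), Tspo (0.86), Pdpk1 (0.85) and Tmem81 (0.84). For Prl they were Prodh (r = 0.95), Rab11b (0.94), Armc9 (0.93), Celf2 (0.92) and Plin4 (0.92). These are descriptions of 9 pools picked from many probes, and the levels of these genes moved far less than those of Ttr and Prl, for example from 6.27 to 6.58 for Tsc2 and from 9.20 to 10.25 for Celf2 on the log2 scale. Gh, at r = 0.92 with Prl, would stand among the closest 5 of Prl if members were counted. Neither set held a gene of the choroid plexus list.

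Outside the brain the members took different places. Liver gave Ttr its highest levels, 24972 to 31428 in XO and 16516 to 18629 in XX pools, and brain minus liver was -2.57 on the log2 scale (SE 0.59, adjusted p = 0.0002) and brain minus kidney 5.03 (SE 0.59, adjusted p = 5.9e-09 by limma). Kl and Folr1 ILMN_2707541 were kidney genes by level, at 4017 to 6134 in XO and 5660 to 6758 in XX kidneys for Kl and at 3403 to 4542 in XO and 4227 to 5275 in XX kidneys for Folr1. Brain minus kidney was -5.54 for both (SE 0.12 for Kl and 0.095 for Folr1), and the dim second Folr1 probe was valued in kidney alone, at 114.1 to 171. Clic6 was higher in brain than in kidney by 1.24 (SE 0.26, adjusted p = 8.9e-05) and than in muscle by 1.13 (SE 0.27, adjusted p = 0.00038 by limma), and in liver its probe was not valued, at 45.7 to 55.4. Such tissue differences are the rule on these arrays, where 77.3% of probes passed for brain against kidney, 87.6% for brain against liver and 83.6% for brain against muscle.

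Gh, Cga and Pomc ILMN_2745802 were valued in brain alone, with intensities of 45.1 to 66.4 across the other tissues. Prl was also valued in muscle, at 45 to 71, and lay 2.31 higher in brain (SE 0.49, adjusted p = 0.0001 by limma). Pomc ILMN_2481962 was valued in all 4 tissues at intensities of 66.9 to 95.9, and after normalisation brain minus kidney was -0.05 (SE 0.04, adjusted p = 0.24). Brain was lower than liver by a difference of -0.48 (SE 0.04, adjusted p = 1.6e-11) and than muscle by one of -0.22 (SE 0.04, adjusted p = 5e-05 by limma).

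**Figure D3:**
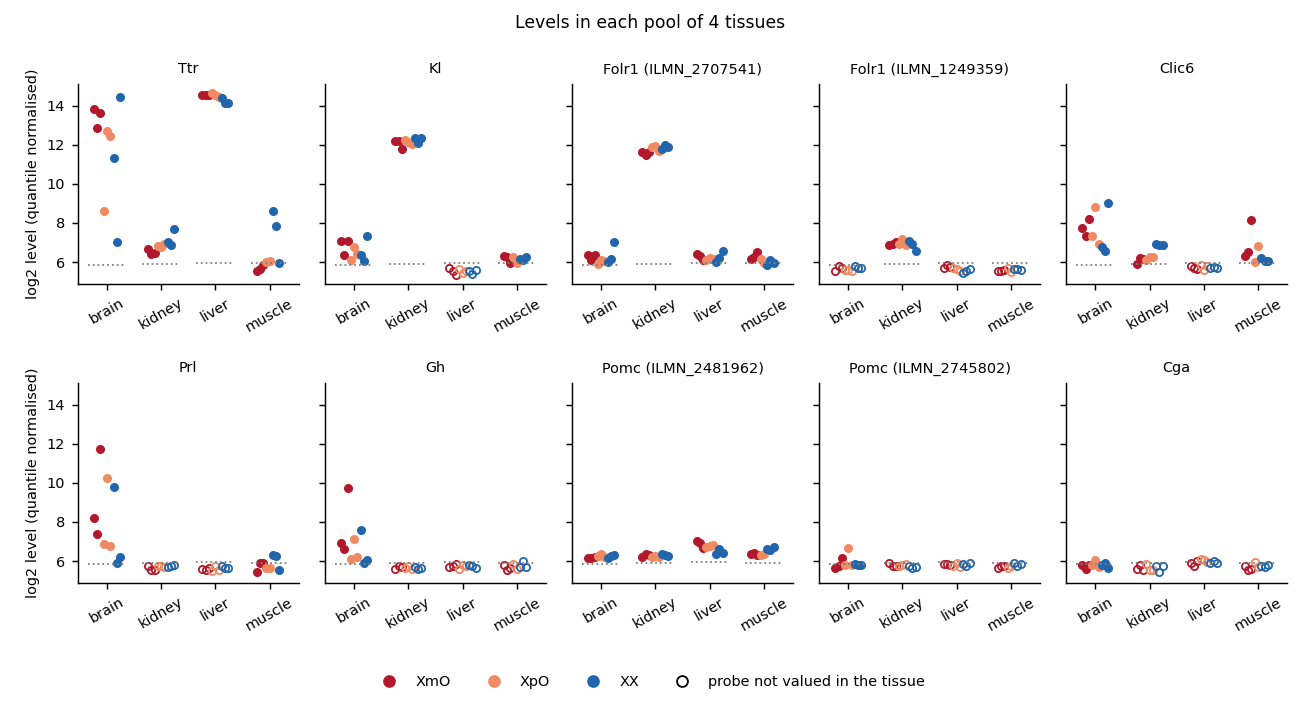
Log2 level after quantile normalisation (vertical axis) of all 10 member probes in each pool of brain, kidney, liver and muscle, coloured by genotype, with open circles where the probe was not valued in the tissue and dotted lines at the 95th percentile of probes valued in no tissue. Ttr is highest in liver, Kl and Folr1 in kidney, and Prl and Gh leave the line clearly only in brain (muscle has 8 pools).

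Clic6 in kidney was the member with the clearest difference between XO and XX mice. The authors' paper already names it among the small number of kidney genes that differed between XX and XO on these arrays. Clic6 was followed here with that result known, so the values below describe the same difference and are no independent support for it. The Clic6 intensity was 66.4, 78.5 and 73.6 in XmO kidneys, 71.9, 84.1 and 79.8 in XpO kidneys, and 145.4, 147.9 and 146.1 in XX kidneys. Every XO pool lay below every XX pool, as did 2.4% of the 23417 probes valued in kidney, and the 3 XX pools were within 3 units of each other. The normalised level was 6.15 ± 0.14 in XO (SD, n = 6) and 6.87 ± 0.03 in XX (SD, n = 3). Clic6 fell by 0.73 in XO on the log2 scale (SE 0.077, adjusted p = 0.0038 by limma), where 0.047% of kidney probes passed.

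By p-value Clic6 ranked 3 of 23417 probes in kidney, and by the size of the difference 89. The 5 other named genes with the smallest p were Xist, the non-coding RNA of the inactive X (-4.74), the X-linked Kdm6a, a histone demethylase (-0.66), Erdr1 (-0.92), Acacb, an acetyl-CoA carboxylase (-0.58), and Eif2s3x, a translation initiation factor subunit (-0.63), all lower in XO. Kdm6a, Erdr1 and Eif2s3x are annotated to the X chromosome, Acacb to chromosome 5 and Clic6 to chromosome 16. The 8 protein-coding genes nearest to Clic6 in the reference order that had a valued probe in kidney did not pass, with XO minus XX from -0.14 (Cbr3) to 0.33 (Kcne1 ILMN_2759208, adjusted p = 0.16 by limma).

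Both kinds of XO mice had the lower Clic6. XmO minus XX was -0.79 (SE 0.082, adjusted p = 0.0038) and XpO minus XX was -0.66 (SE 0.082, adjusted p = 0.022 by limma), with 0.713% and 0.0214% of probes passing. The difference between XmO and XpO was -0.13 (SE 0.082, adjusted p = 0.57), and these groups overlapped (0.0897% of probes passed). The XpO minus XX call was lost when XX pool 2 or any of the 3 XpO pools was left out (adjusted p = 0.070 to 0.13) and with the pool number as a block (adjusted p = 0.053). Clic6 was dim in XO kidneys. The mean XO level of 6.15 lay just above the highest mean of the kidney probes valued in no tissue (6.04) and XmO pool 1 at 5.90 lay below it.

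**Figure D4:**
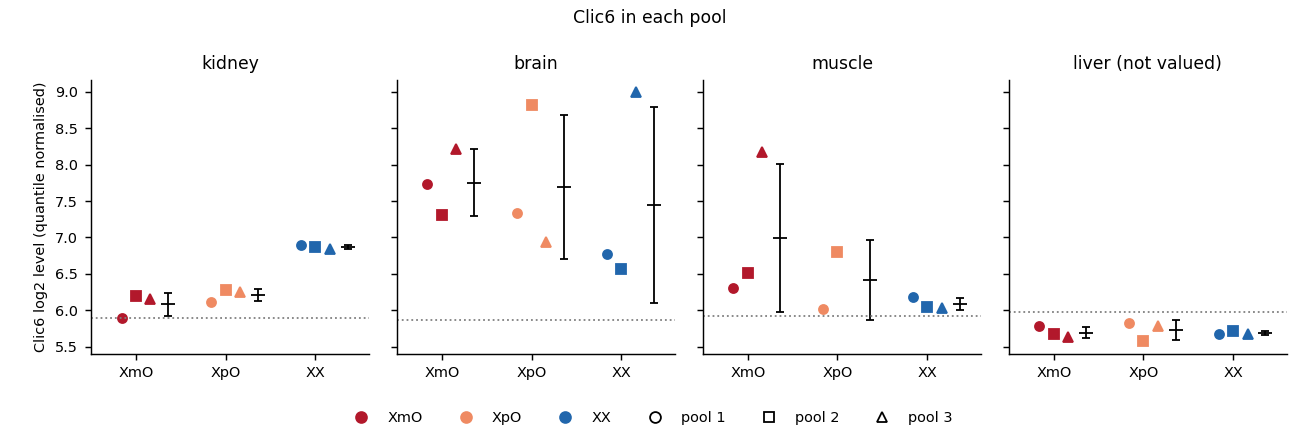
Clic6 log2 level after quantile normalisation (vertical axis) in each XmO, XpO and XX pool of kidney, brain, muscle and liver. Symbols give the pool number, bars the mean and standard deviation of a genotype, and the dotted line the 95th percentile of probes valued in no tissue. In kidney the 6 XO pools lie at 5.90 to 6.27 and the 3 XX pools at 6.85 to 6.90, while in brain all groups overlap and in muscle the XmO pools lie above the XX pools, XmO pool 3 furthest.

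In no other tissue did Clic6 pass. In muscle it was 78.7, 88.3 and 278.3 in XmO, 69.4 and 108.5 in XpO, and 66, 61.6 and 60.6 in XX pools, with a difference of 0.68 (SE 0.37, adjusted p = 0.40 by limma). On the intensity scale every XO muscle pool used lay above every XX pool. The XO muscle arrays were also brighter as a whole, with median intensities of 63.4 to 67.4 against 58.6 to 59 in XX. The share of muscle probes with all XO pools above all XX pools on that scale was not counted. After normalisation XpO pool 1 (6.02) was just below the XX pools (6.03 to 6.18). The XmO pools (6.31, 6.51 and 8.17) stayed above the XX pools, and XmO pool 3 was far above the other 7. In the authors' normalised values Clic6 was 6.98 in the omitted XpO pool 3 and 7 in XpO pool 1. Both lay below the XX pools in those values (7.06, 7.01 and 7.01). The effect in brain minus that in kidney was 1.00 (SE 0.55, adjusted p = 0.65) and that in kidney minus that in muscle -1.34 (SE 0.57, adjusted p = 0.23, unadjusted p = 0.025), so a difference between tissues was not shown. Of interactions over all probes, 0.0337% and 1.64% passed.

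Over the 9 kidney pools the probes closest to Clic6 were those of Clasrp (r = 0.98), Xist (0.97), Etfdh (0.95), Gdpd1 (0.95) and Kdm6a ILMN_2506528 (0.94). The XO and XX pools form separate clusters in Clic6 and in Xist, so these values restate the difference between the groups.

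Ttr in kidney was 124.4, 91.1 and 94.2 in XmO, 126.3, 126.3 and 138.1 in XpO, and 159.6, 147.1 and 278 in XX pools. After normalisation the XO and XX pools overlapped, with XpO pool 3 (6.90) above XX pool 2 (6.86). The difference of -0.51 (SE 0.16) did not pass (adjusted p = 0.23 by limma) and was -0.27 without XX pool 3. Kl (-0.18, SE 0.10) and Folr1 ILMN_2707541 (-0.19, SE 0.10) in kidney did not pass either, and of 24 valued choroid plexus genes beside the members (33 probes) none passed there. The 22 valued genes of nephron segments held no called probe among 34.

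In liver, Ttr measured 26407, 26093 and 24972 in XmO, 31428, 27935 and 25355 in XpO, and 18629, 17591 and 16516 in XX pools. All XO pools lay above all XX pools. Ttr rose by 0.31 in XO (SE 0.075, adjusted p = 0.037 by limma). This is a fold of 1.24 after normalisation, smaller than the ratio of median intensities before it (1.49). Pomc ILMN_2481962 had 92.6, 86.5 and 79.5 in XmO, 84.8, 84.6 and 87.7 in XpO, and 66.9, 80.5 and 70.3 in XX livers, and rose by 0.37 (SE 0.089, adjusted p = 0.037 by limma). Here the intensities overlapped between groups and the normalised levels did not. The Pomc difference in brain minus that in liver was -0.38, in kidney minus liver -0.41 and in liver minus muscle 0.66, and all 3 passed, as did 7.35%, 0.481% and 13.7% of probes. The kidney minus liver call was lost in 6 of 35 fits without 1 pool (XX pool 1 or 3 of liver, XX pool 1 or 2, XpO pool 1 or XmO pool 1 of kidney, adjusted p = 0.053 to 0.11 by limma).

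These 2 of the 3 member probes valued in liver stand in a tissue where 5.7% of 19878 probes passed and in which 15.2% had groups that did not overlap. The Ttr call was lost without any 1 of 7 of the 9 liver pools, with adjusted p up to 0.15, and so was that of Pomc, with adjusted p up to 0.14. The direction was kept in each case. Folr1 in liver did not differ beyond its error (-0.03, SE 0.11). Of the other choroid plexus genes valued in liver, 2 of 21 probes passed, with Wfdc2, a secreted protease inhibitor, at -0.66 (SE 0.13) and Cldn2, a tight junction protein, at 0.31 (SE 0.069).

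**Figure D5:**
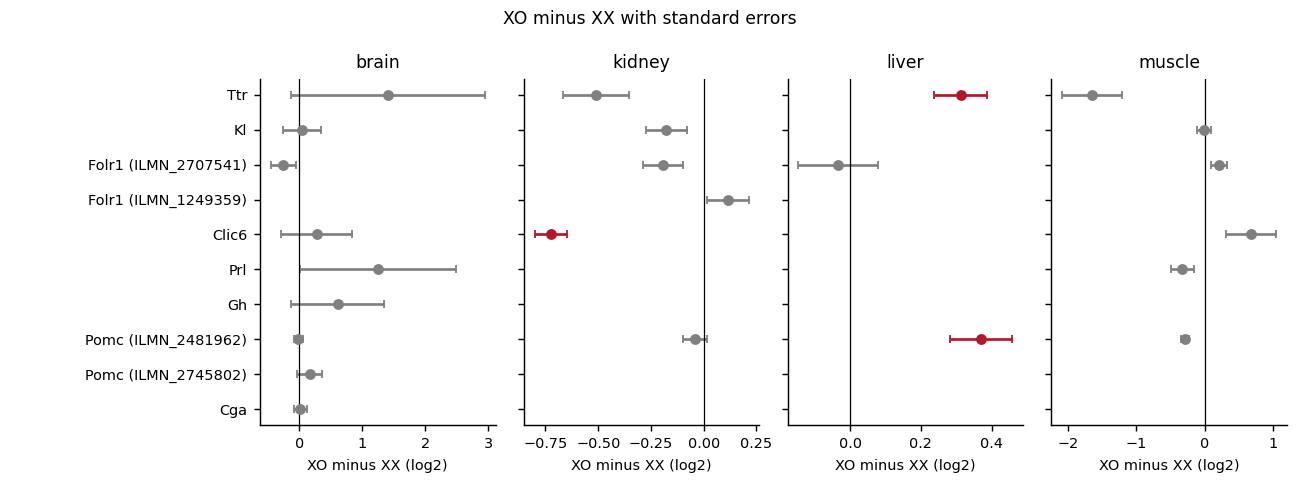
XO minus XX difference on the log2 scale with its standard error (horizontal axis, a scale of its own in each tissue) for the member probes valued in brain, kidney, liver and muscle. Red points passed the test at an adjusted p of 0.05 and grey points did not, and the passing points are Clic6 in kidney (-0.73) and Ttr (0.31) and Pomc ILMN_2481962 (0.37) in liver.

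In muscle, Ttr had 48.7, 52.3 and 59.4 intensity units in XmO pools and 69.3 and 69 in XpO pools, against 303.5, 188.8 and 57.7 in XX pools 1 to 3. The difference of -1.64 (SE 0.44) did not pass (adjusted p = 0.15 by limma, with 0.00917% of muscle probes passing), and XX pool 3 was among the XO pools. Leaving out that pool gave -2.41 (adjusted p = 0.000334 by limma), and leaving out XX pool 1 gave -1.06 (adjusted p = 0.30). In the authors' normalised values, which include the omitted XpO pool 3, Ttr was 6.83, 6.88 and 6.93 in XmO and 7, 7.01 and 10.51 in XpO pools, against 8.56, 7.97 and 6.98 in XX pools 1 to 3. The omitted pool was thus the highest of all 9, and with it XO minus XX was -0.31 (SE 0.78, adjusted p = 0.88 by limma). In the same values the liver gene Apoa2 (ILMN_1247156) was 12 in XpO pool 3 and 6.86 to 6.93 in the other XO pools, against 8.65, 8.74 and 6.93 in XX pools 1 to 3, so the 3 pools highest in Ttr were also the 3 highest in Apoa2. A second Apoa2 probe (ILMN_2775957) was 6.77 to 7.07 in all pools. On the intensity scale XX pools 1 and 2 were also highest in Prl, which had 46.1, 61.4 and 61.2 in XmO and 55.3 and 53.5 in XpO pools, against 71, 70.4 and 45 in XX pools 1 to 3. They were highest in the neuronal Snap25 probe ILMN_2434336 as well, which had 57.2, 77.7 and 75.6 in XmO and 78.2 and 63.5 in XpO pools, against 126, 129.8 and 50.8 in XX pools 1 to 3. The liver gene Apoa1 was 300.3 to 438 in XO and 267.9 to 304.1 in XX muscle, without XpO pool 3. In the authors' values Apoa1 was 9.84 in XpO pool 3 and 8.33 to 8.72 in the other pools. Snap25 ILMN_2434336 was 6.92 in XpO pool 3 in those values, against 7.6 and 7.59 in XX pools 1 and 2. The hypothalamic list summed to 565.8 to 640 in XO and 464.9 to 518.3 in XX muscle. Such sums are not normalised, and the XO muscle arrays had higher median intensities (63.4 to 67.4 against 58.6 to 59 in XX). The nephron segment list was also higher in XO muscle (36532 to 39951 against 28896 to 34670). The other pituitary genes overlapped (682.9 to 753.5 in XO and 652.5 to 726.9 in XX). The myelin gene Mbp (ILMN_2737200) was 375.1 to 483.3 in XmO and 321.5 and 330.7 in XpO pools, against 415.4, 681.3 and 353 in XX pools 1 to 3. No probe of the synaptic vesicle gene Syt1 was valued in muscle, and the second Snap25 probe was level at 69 to 73.7. The part of other tissues' RNA in the Ttr and Prl values of muscle was not tested. Kl (-0.01, SE 0.10) and Folr1 (0.21, SE 0.12) did not pass in muscle.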

How the data were processed

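The authors summarised the scanned beads in BeadStudio, and the deposited intensities before normalisation are linear and partly repeat a probe identifier (47871 lines for 46632 probes). The authors then normalised all arrays by quantiles on a log scale with lumi, and the deposited log2 table of 28885 probes is the result, with blanks for tissues in which a probe was not counted as detected. Probes were named from the array's platform annotation (21014 with 1 symbol, 6 with several, 7865 with none).

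Repeated lines of a probe were averaged and a floor of 1 was set before the log2 step. Quantile normalisation was then run on 35 arrays at once. One column, for the muscle array of XpO pool 3 (whole numbers of 10 to 108), was left out of all fits except those to the authors' values. Quantile normalisation lets a dim probe move with the other probes of its array, and without background subtraction small signals understate folds. Depth has no equivalent on arrays, and the number of pools limits the precision. Pools are separate sets of mice, but single mice were not measured.

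Groups were fitted per tissue with limma 3.58.1 in R 4.3.3 over every probe valued in the tissue, with 2 groups (XO, XX) or 3 genotypes, and differences between tissues in 1 fit of all tissues. Pair correlations used Python 3.11.15 and numpy 2.4.6. The scripts were tested on simulated data. The members and gene lists were chosen with earlier results of these data known. Named beside the members were list genes past the threshold (at most 4 per list and comparison), Otx2, Aqp1 and Lhb as markers, the 5 named genes closest to Ttr, Prl and Clic6, and the 5 with the smallest kidney p. Genes beyond this rule (Ecrg4, Sostdc1, Pcp2, Oxt, Avp, Snap25, Mbp, Apoa1, Apoa2, the tissue markers and the neighbours of Clic6) were picked after their values were seen or as markers. Kcnj13, Enpp2, Tshb, Fshb and Pou1f1 had no named probe here and were not analysed.

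Alternatives were the authors' values, scaling by medians or by quantiles of each tissue alone, background correction by normexp (offset 50), testing all probes or only those above the median level, each pool left out, the pool number as a block, brain without XX pool 3 and XmO pool 2, and gene means. The use of the other Pomc probe in the pair correlations, and the settings run on differences between tissues of members other than Clic6, were added after seeing the data.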

Additional observations from a re-analysis of the deposited data

Results flagged for a closer look

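Among the 24 sets of XO pools with a valued member probe, 2 held a pool far from the other 5, where chance alone flags about 1 in 20. Gh in the brain of XmO pool 3 was 9.74 on the log2 scale (847.4 intensity units, against 75.5 to 164.5 in the other XO brains), with a gap to the next pool of 0.729 of the whole range. Ttr in the brain of XpO pool 1 was 8.60 (504.1 units, against 5418 to 11329 in the other XO brains), with a gap of 0.742 of the range. The XX pools were not part of this search, and Ttr in the brain of XX pool 2 was lower still, at 163.2 units. The 24 sets share pools and are not independent.

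The XO minus XX difference of Pomc probe ILMN_2481962 was not the same in all tissues. It differed by -0.38 between brain and liver (SE 0.090, adjusted p = 0.012), by -0.41 between kidney and liver (SE 0.090, adjusted p = 0.031) and by 0.66 between liver and muscle (SE 0.092, adjusted p = 6.3e-05 by limma), where 7.35%, 0.481% and 13.7% of probes passed. Its intensities in muscle were 79.6 to 82.9 in XO and 83.7 to 86.9 in XX pools, so the normalised muscle difference of -0.29 (SE 0.063, adjusted p = 0.11 by limma) came with nearly level signals. On the authors' values the first 2 of these differences between tissues were -0.12 and -0.13 and did not pass (adjusted p = 0.071 and 0.10 by limma).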

How the results depend on the processing

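Clic6 in kidney kept its direction and its call for XO against XX under every setting in which its probe was tested, from -0.47 on the authors' values to -0.90 under median scaling. Its level is under the median of valued probes, so with only the brighter probes 0 members passed in kidney for XO, XpO and XmO against XX. With the pool number as a block, 0 passed in kidney for XpO minus XX, and 1 in liver for XO minus XX (Ttr, adjusted p = 0.049, while Pomc had 0.056) and for XmO minus XX. Same-numbered pools did not deviate together (correlations of -0.58 to 0.37 in brain), so the numbers are not known to pair the pools. The block changed no other count of members past the threshold. In liver 1 member passed for XO minus XX on the authors' values and among the brighter probes, and 1 for XmO minus XX on the authors' values, under median scaling, without the filter and among the brighter probes. Under median scaling 1 passed for XpO minus XX in liver, where it was 0. For brain levels, without the filter 8 member probes passed against kidney (4 with it) and 7 against liver (2 with it), and among the brighter probes 1 passed against liver and 2 against muscle (5 in all).

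Leaving out 1 pool at a time, the members passing were 0 to 1 in liver for XO and XmO against XX, 0 to 1 in muscle for XO, XpO and XmO against XX (1 without XX pool 3), and 0 to 1 in kidney for XpO against XX. Of the pairs in brain, 1 to 3 passed without a pool and 1 without XX pool 3 and XmO pool 2. Some differences of XO against XX changed sign without a pool: in brain Ttr (-0.55 to 3.17), Kl (-0.22 to 0.42), Folr1 (-0.43 to 0.057), Clic6 (-0.16 to 1.05), Pomc ILMN_2481962 (-0.062 to 0.025) and Cga (-0.045 to 0.074), in kidney Folr1 ILMN_1249359 (-0.030 to 0.22), in liver Folr1 (-0.16 to 0.12) and in muscle Kl (-0.054 to 0.039). Without XX pool 3 and XmO pool 2, brain Folr1 was 0.069, Pomc ILMN_2481962 0.037 and Cga -0.00674. As gene means Pomc in brain was 0.077 and Folr1 in kidney -0.040, and on the authors' values Kl in muscle was 0.017. Median scaling called 671 probes in muscle (94.5% higher in XO) in place of 2 (0% higher) and 1427 in liver (90.3% higher) in place of 1133 (51.5% higher), with median differences of all probes of 0.073 and 0.053. The cause was not tested. Signals near the floor limit Cga, Pomc, Folr1 in brain and Clic6 in XO kidneys.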
